A study of Oryza sativa with 4 samples.

Results

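NAC proteins are a plant family of transcription factors. They share a DNA-binding NAC domain at the amino end, bind DNA as dimers through a short core of bases, and carry a variable carboxyl end that activates or represses transcription. In rice the stress-responsive subgroup, to which NAC067, NAC068, NAC071 and SNAC2 belong, is known for raised transcript levels in drought, salt, cold and wounding, and other members act in leaf ageing, cell death, branching and the building of water-conducting cells. The factors described here are the genes whose symbol or synonym, after removal of any Os prefix, is NAC or SNAC followed by a number. The rice gene table used here holds 10 such genes. Of these, 8 had a probe set of their own on the array (13 of the 57194 probe sets, and 8 of the 17905 genes with such a probe set). NAC074 was measured only by 2 probe sets that it shares with another gene, and NAC077, a gene known for its expression in phloem, had none in the probe table. The family is larger than this, since a NAC gene without such a name in the tables could not enter. The name NAC4 is carried by 2 of the genes, called here NAC068 and NAC2.

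The plants were rice of the cultivar Senia at the second vegetative stage. The treated group spent 6 h in sealed bags whose CO2 had been brought to 30% by injection, and the control group spent the same 6 h in air labelled 0.04% CO2. All plants were kept in the dark at 27 °C. Each group had 2 samples, labelled as biological replicates, and each sample was RNA from the leaves of 10 plants on an Affymetrix array. The labels do not say whether control plants were bagged, so an effect of the bag and one of CO2 cannot be told apart. As each sample holds whole leaves, a change in transcript per cell and a change in the share of a cell type cannot be told apart either.

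Sample medians lay between 3.85 and 3.92 on the log2 scale. Pearson's r over probe sets was 0.989 within the CO2 group, 0.993 within the controls and 0.951 to 0.968 between groups. The tissue label was checked against marker genes: the median signal of 13 leaf markers was 12.15 and 12.33 in the controls and 11.70 and 11.27 under CO2, while that of 8 root markers lay between 3.51 and 3.76 in all samples. Mean signals of single leaf markers ran from 3.05, for RBCS1, to 13.64, and those of root markers from 2.21 to 6.67. Of the root markers 2 rose (IRT2 by 3.03 and OsSCR1 by 0.89 on the log2 scale), 1 fell (IRT1, at -2.47) and 5 did not pass limma's test.

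NAC067 had the largest rise of the family and NAC068 the next, and both rose in each CO2 sample. NAC071 rose by a smaller amount. NAC2 was the member with the lowest fold change, and it did not pass the test. The remaining members, SNAC2, NAC45, NAC076 and NAC010, did not pass either. In limma's test across all genes, each gene standing on its probe set with the highest mean signal, 3 of the 8 NAC genes rose, 0 fell and 5 did not pass an adjusted p of 0.05, and 5 of the 8 had an unadjusted p under 0.05. Over all genes 12.4% rose, 18.8% fell and 43.9% had an unadjusted p under 0.05. The median log2 fold change was 0.42 over the 8 NAC genes and -0.08 over all genes. NAC076 is among the 5 with an unadjusted p under 0.05 through a probe set brighter than its other set only under CO2. The same set enters the median. Of the 13 NAC probe sets 3 rose and 0 fell, where 4.73% of all probe sets rose and 6.78% fell. Both CO2 samples lay above both controls on 7 of the 13 and below them on 2. Over all probe sets these shares were 27.8% and 26.0%.

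**Figure D1:**
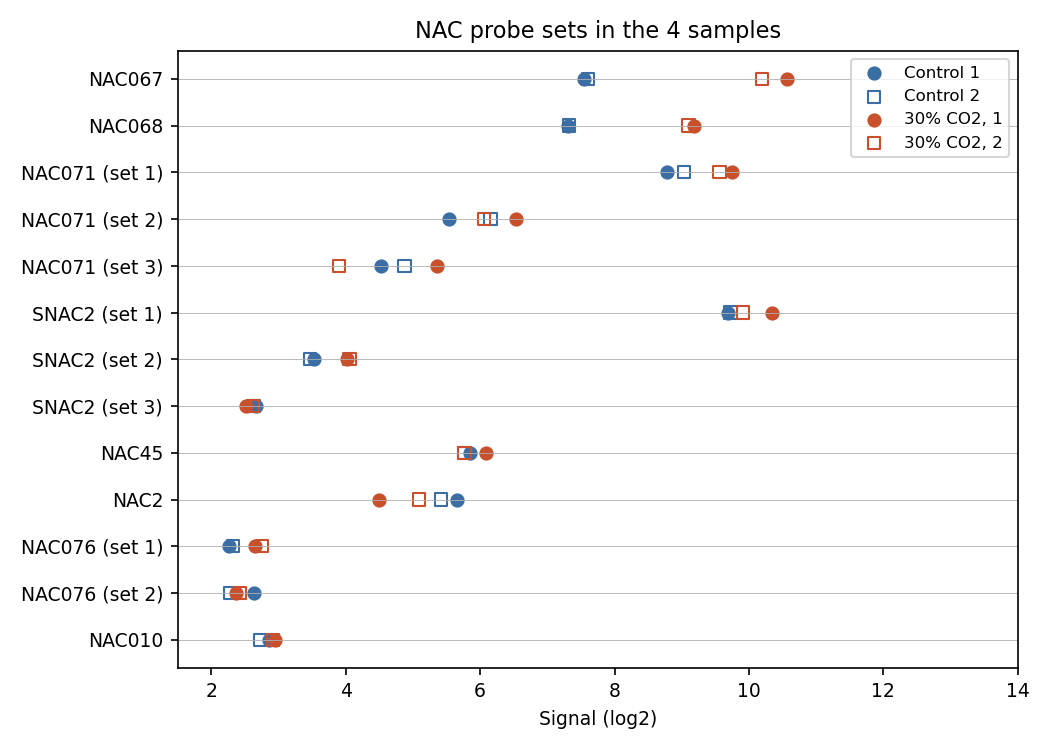
Log2 signal (x axis) of the 13 NAC probe sets (rows) in the 4 samples: blue for control, orange for 30% CO2, filled circles for replicate 1 and open squares for replicate 2. The CO2 samples of NAC067 sit at 10.57 and 10.19, well right of the controls at 7.54 and 7.60, and those of NAC2 sit left of its controls.

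NAC067 (LOC4342753, also NAC3), a stress-responsive factor, was measured by a single probe set. Its log2 signal was 7.54 and 7.60 in the controls and 10.57 and 10.19 in CO2 replicates 1 and 2. The lower CO2 sample stood 2.59 above the higher control, so the groups lay far apart compared with their SDs of 0.04 in controls and 0.27 under CO2 (n = 2 each). The log2 fold change was 2.81 ± 0.17 (SE; 95% interval 2.38 to 3.25; limma adjusted p over all probe sets = 0.00449), a 7.02-fold rise. Ranked by rise alone, with falls not counted by their size, NAC067 stood at rank 193 of all 17905 genes and at rank 36 of the 2459 genes with a name. Of 2793 other genes with a control signal within 0.5 of that of NAC067, 25 had at least as large a fold change, 393 rose and 626 fell. The NAC067 call over genes was lost when either control was left out. Its log2 fold change was 2.78 without control replicate 1 and 2.84 without control replicate 2. The call over probe sets was lost there too, and also without CO2 replicate 1, at 2.62. With either control left out all other genes lost their calls as well. In each of these settings so did all other probe sets.

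NAC068 (LOC4327485, also NAC4), which in rice is known for promoting cell death in the hypersensitive response to pathogens, had the tightest values of the risen members. Its probe set read 7.30 and 7.32 in the controls and 9.18 and 9.10 under CO2. The groups did not overlap, with 1.78 between the nearest samples. The log2 fold change was 1.83 ± 0.12 (SE; 95% interval 1.52 to 2.14; limma adjusted p over all probe sets = 0.00465), a 3.56-fold rise. Its call over genes was lost when either control was left out, at 1.82 without control replicate 1 and 1.84 without control replicate 2. The call over probe sets was lost there too, and also without CO2 replicate 1, at 1.79. The interval of NAC068 lies below that of NAC067, and even the smaller rise of NAC067, 2.62 in CO2 replicate 2, exceeded the larger rise of NAC068, 1.87 in CO2 replicate 1. The difference between these genes was not tested.

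NAC071 (LOC4349963, also NAC5), known for responding to abscisic acid, drought and salt, had 3 probe sets with different results. The brightest read 8.77 and 9.03 in the controls and 9.75 and 9.56 under CO2. Here the CO2 samples were above both controls by at least 0.53, with a log2 fold change of 0.75 ± 0.15 (SE; limma adjusted p over all probe sets = 0.045). The next, of a kind that can bind several transcripts, read 5.54 and 6.15 in the controls and 6.53 and 6.06 under CO2, so its groups overlapped (0.45 ± 0.28, adjusted p = 0.394). The dimmest read 4.52 and 4.87 in the controls and 5.36 and 3.902 under CO2, with CO2 replicate 1 above and CO2 replicate 2 below both controls (-0.06 ± 0.50, adjusted p = 0.961). Averaged over its 3 probe sets NAC071 gave 0.38 (adjusted p over genes = 0.401). The rise rests on the brightest probe set and on all 4 samples: without any single sample it ranged from 0.62 to 0.88, with adjusted p over genes between 0.0618 and 0.143, being 0.66 without CO2 replicate 1, 0.85 without CO2 replicate 2, 0.62 without control replicate 1 and 0.88 without control replicate 2.

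**Figure D2:**
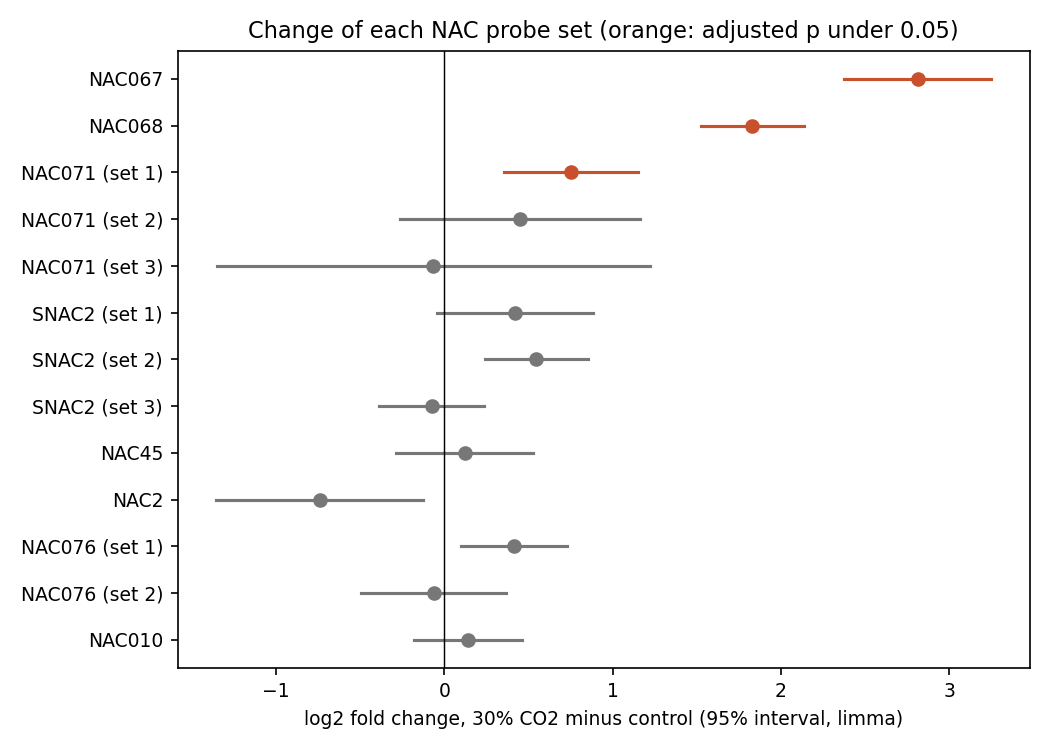
Log2 fold change of each NAC probe set, 30% CO2 minus control (x axis), as a point with its 95% interval from limma. Orange marks an adjusted p under 0.05: NAC067 at 2.81, NAC068 at 1.83 and the brightest set of NAC071 at 0.75, while the other 10 sets are grey.

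SNAC2 (LOC4325006, also NAC6 and NAC048), a factor whose overexpression is known to raise cold, drought and salt tolerance in rice, was already bright in controls and did not pass the test. Its brightest probe set read 9.69 and 9.72 in the controls and 10.34 and 9.92 under CO2. The CO2 samples were higher, but CO2 replicate 2 by only 0.19 over the nearest control, and the log2 fold change of 0.42 ± 0.18 (95% interval -0.04 to 0.88; limma adjusted p over all probe sets = 0.232) leaves a rise of up to 0.88 within the interval. A second set read 3.52 and 3.47 in the controls and 4.02 and 4.06 under CO2, with a fold change of 0.55 ± 0.12 just outside the threshold (adjusted p = 0.0507). The third stayed between 2.52 and 2.66 in all 4 samples (-0.07 ± 0.12, adjusted p = 0.777). The interval of the brightest set overlaps that of NAC071, so the order of these genes is not settled by their errors.

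NAC2 (LOC4336052, also TIL1), a factor known for its effect on tillering and for being a target of the microRNA miR164, was lower in both CO2 samples. Its probe set read 5.66 and 5.41 in the controls and 4.50 and 5.09 under CO2. The groups did not overlap, by 0.32, and the log2 fold change of -0.74 ± 0.24 (95% interval -1.35 to -0.13) did not pass (limma adjusted p over all probe sets = 0.132; adjusted p over genes = 0.0732). It passed over genes without CO2 replicate 2 (-1.04, adjusted p = 0.0439) and not without CO2 replicate 1 (-0.44, 0.192).

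NAC45 (LOC4349650), known for drought and salt tolerance on overexpression, was at 5.85 and 5.77 in the controls and 6.09 and 5.77 under CO2. CO2 replicate 2 and control replicate 2 had the same value, so the groups overlapped (log2 fold change 0.12 ± 0.16, limma adjusted p = 0.716). NAC010 (LOC4343630) read 2.86 and 2.72 in the controls and 2.94 and 2.92 under CO2 (0.14 ± 0.12, limma adjusted p = 0.556).

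NAC076 (LOC4341201, also NAC7), of the subgroup known for water-conducting cells of xylem, had 2 dim probe sets that differed in sign. The set that can bind several transcripts read 2.26 and 2.32 in the controls and 2.65 and 2.76 under CO2 (0.41 ± 0.12, limma adjusted p over all probe sets = 0.111). The other read 2.64 and 2.28 in the controls and 2.36 and 2.43 under CO2 (-0.06 ± 0.17, adjusted p = 0.869). The control signals of NAC076 and NAC010 were at the 10.0th and 27.6th percentile of all probe sets, and as the table has no detection calls, it cannot be said whether these genes were expressed in the leaves.

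NAC074 (LOC4325120, also NAC8 and NTL3), a membrane-bound factor known in rice from heat and endoplasmic reticulum stress, shares both of its probe sets with LOC4339367, so its own level cannot be given. The brighter set read 10.00 and 10.04 in the controls and 10.49 and 9.95 under CO2, with the controls between the CO2 samples (log2 fold change 0.20 ± 0.21, limma adjusted p = 0.633). The dimmer set lay between 7.21 and 7.27 in all 4 samples (0.03 ± 0.12, limma adjusted p = 0.931, 95% interval -0.28 to 0.33).

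**Figure D3:**
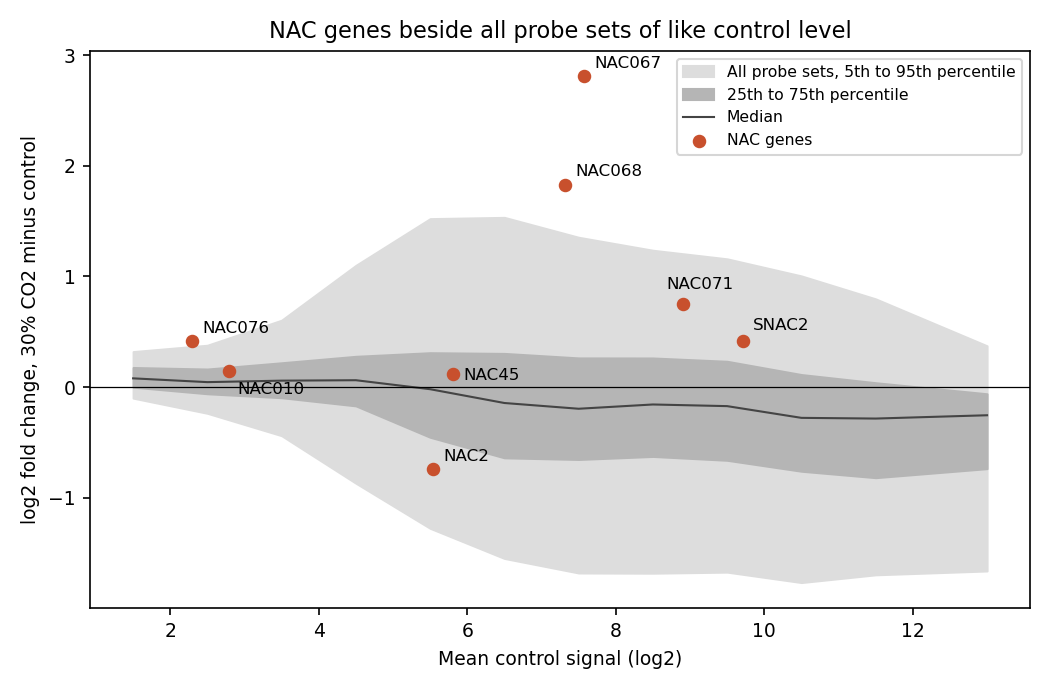
Log2 fold change (y axis) against mean control signal (x axis) of the 8 NAC genes (orange points), over the spread of all 57194 probe sets in bins of control signal (light band, 5th to 95th percentile; dark band, 25th to 75th; line, median). NAC067 and NAC068 lie above the light band, whose upper edge is 1.35 for control signals of 7 to 8. NAC071 lies within the band. NAC076, which did not pass the test, lies just above its edge with 0.41. The probe set shown for NAC076 was brighter than its other set only under CO2.

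The size of these changes was read against probe sets of like brightness, because the spread of changes differed with brightness. The 95th percentile of the log2 fold change was 0.38 for control signals of 2 to 3. It was 1.53 for signals of 6 to 7 and 0.37 for signals of 12 to 14. Of 4299 probe sets with a control signal between 7 and 8, where NAC067 and NAC068 lie, 9.84% rose and 16.3% fell, and the 95th percentile of the log2 fold change was 1.35. Both genes were above that value. In the bin from 8 to 9, which holds NAC071, the 95th percentile was 1.24 and NAC071 was below it. NAC076, in the bin from 2 to 3, was just above the 0.38 of that bin, at 0.41 on the set that stood for it, without passing the test. That set was the brighter only through its CO2 samples. In the controls its mean was 2.29, against 2.46 for the other set. As the choice used the CO2 values, this place above the 95th percentile is no evidence of a rise. Its other set, at -0.06, was below.

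The share of NAC genes on the same side of the control mean in both CO2 samples was close to that of all genes. Of the 8 genes 6 were above the control mean in both CO2 samples and 1, NAC2, below it in both. The exception was NAC45, above it in CO2 replicate 1 and below it in CO2 replicate 2. This 12.5% with opposite signs compares with 18.1% over all genes. NAC076 is among the 6 genes through a probe set brighter than its other set only under CO2. Its other set was below the control mean in both CO2 samples. CO2 replicate 1 was above CO2 replicate 2 in 6 of the 8 NAC genes, with a median difference of 0.13, against 40.8% of all genes and 67.7% of the genes that rose.

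Genes of abscisic acid and dehydration, among which targets of stress-responsive NAC factors are known, had CO2 samples far apart from each other. Of 9 such genes 0 rose, 0 fell and 9 did not pass in limma's test, 0 of them with an unadjusted p under 0.05, and their median log2 fold change was -0.18. Here 7 of the 9 were above the control mean in CO2 replicate 1 and below it in CO2 replicate 2, and all 9 were higher in CO2 replicate 1, by a median of 1.11. Control replicate 1 was likewise above control replicate 2 in each of these genes. The list medians were 8.38 and 7.82 in control replicates 1 and 2, and 9.12 and 7.44 in CO2 replicates 1 and 2. RAB21, a dehydrin gene, read 11.78 and 11.31 in the controls and 11.72 and 8.62 under CO2, so that only CO2 replicate 2 stood apart; it was picked after its values were seen. The members with the smallest p were Dhn1, for another dehydrin, at 9.17 and 8.41 in the controls and 10.47 and 9.35 under CO2 (1.12 ± 0.45, limma adjusted p over genes = 0.123; 0.23 averaged over its probe sets), and BZIP23, for a factor of abscisic acid signalling, at 8.29 and 7.82 in the controls and 9.04 and 8.18 under CO2 (0.56 ± 0.33, limma adjusted p over genes = 0.266). Without CO2 replicate 1, 2 of the 9 genes fell.

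**Figure D4:**
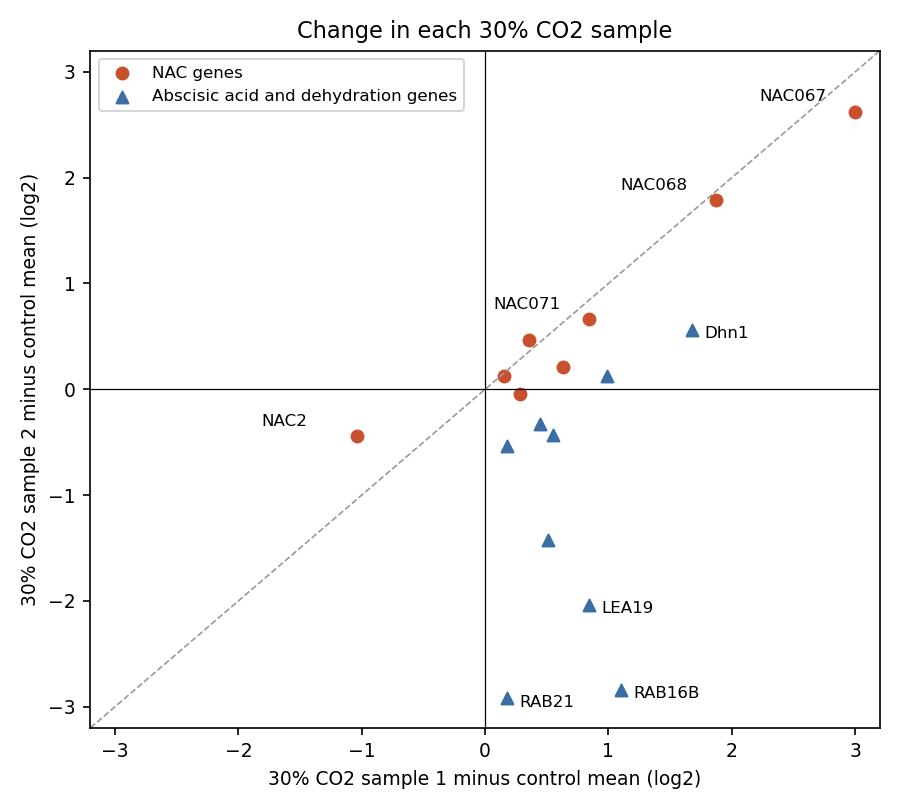
Change in each CO2 sample against the control mean, in log2 units: CO2 replicate 1 on the x axis, replicate 2 on the y axis, with a dashed line of equal change. NAC067, NAC068 and NAC071 (orange circles) lie near the line, while RAB21, RAB16B and LEA19 (blue triangles, dehydration genes) lie far below it, above 0 in replicate 1 and at -2.92, -2.84 and -2.04 in replicate 2. The probe set of LEA19 can bind several transcripts.

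Among chlorophyll breakdown genes, some of which are bound by NAC factors during leaf ageing in rice, NYC1 and SGR fell. Of 4 such genes 0 rose, 2 fell and 2 did not pass. NYC1, for a chlorophyll b reductase, read 9.49 and 9.79 in the controls and 7.83 and 7.26 under CO2, which gave a log2 fold change of -2.10 ± 0.24 (limma adjusted p over genes = 0.00565). SGR, for the stay-green protein that removes magnesium from chlorophyll, read 8.01 and 7.60 in the controls and 6.38 and 5.88 under CO2 (-1.68 ± 0.24, adjusted p over genes = 0.00903). This SGR probe set can bind several transcripts, and without such sets the log2 fold change of SGR was -2.54. Both calls were lost when either control was left out, with adjusted p over genes of up to 0.1 for NYC1 and 0.107 for SGR. Over all genes 18.8% fell and 12.4% rose. Leaf markers were also lower, with 6 of 13 falling and 1 rising. Of all probe sets with a control signal of 12 to 14, where the control medians of the leaf markers lie, 23.5% fell and 1.92% rose. The part of the leaf marker shift in the values of NAC genes was not tested.

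Secondary wall genes, which in rice are controlled by wall-forming NAC factors, did not pass. Of 5 genes by name 0 rose, 0 fell and 5 did not pass in limma's test, 1 with an unadjusted p under 0.05. This was a gene listed as BC1 and also as bHLH081 (LOC4347540), at 5.37 and 4.31 in the controls and 5.80 and 6.36 under CO2 (1.24 ± 0.40, limma adjusted p over genes = 0.0771). It entered the list through the shared name BC1, and a role in the secondary wall is not shown for it here. This gene rose after quantile normalization and with the crossed replicate block. The other gene listed as BC1 (LOC4333114), known for a protein of cellulose assembly, read 6.46 and 6.30 in the controls and 5.10 and 6.25 under CO2 (-0.71 ± 0.39, limma adjusted p over genes = 0.228). Its value rests on CO2 replicate 1: it fell without CO2 replicate 2 (-1.28, limma adjusted p over genes = 0.0289) and stood at -0.13 (0.563) without CO2 replicate 1.

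The named genes whose profile was most like that of NAC067 were sought by the Euclidean distance between the 4 log2 values, each taken relative to the gene's control mean. With 4 samples in 2 groups this measure mainly reflects the size of the change. The closest were CDKE-1, for a cyclin-dependent kinase, at a distance of 0.25, the iron transporter gene IRT2, which is among the root markers, at 0.44, ARP3, for an actin-related protein, at 0.44, SPL15 at 0.45 and ERH1 at 0.47. CDKE-1 read 9.84 and 9.93 in the controls and 12.96 and 12.75 under CO2, but averaged over its probe sets its log2 fold change went from 2.97 to 1.21. SPL15 read 10.11 and 9.80 in the controls and 12.83 and 12.92 under CO2, which gave a log2 fold change of 2.92.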

How the data were processed

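Leaf RNA of 4 rice samples (2 under 30% CO2, 2 controls) was hybridised to Affymetrix rice arrays. The authors deposited a table of log2 signals with a row for each probe set, and the submitters' processing notes name RMA and limma without versions. No rescaling was applied. The number of arrays limits the precision, and signal over background is not given.

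Names came from the platform's annotation, joined on gene identifier to a rice gene table (assembly ASM3414082v1, no coordinates used). A single gene was given for 22436 probe sets and several for 95, and 34663 are unnamed here. Differences (CO2 minus control) were fitted on all 57194 probe sets in R 4.3.3 by limma 3.58.1 (functions lmFit, eBayes; a two-sided test without block or filter), and p-values were adjusted by Benjamini-Hochberg across the whole table. For gene counts the probe set with the highest mean stood for a gene and p-values were adjusted over 17905 genes. The threshold was an adjusted p of 0.05. The fit had 2 residual degrees of freedom and a prior worth 2.85 more. An exact permutation test of 2 against 2 samples cannot go below p = 0.333. Separate cultures are not described, so p-values measure the spread between these samples. The procedure was tested on simulated data. Figures were drawn with matplotlib 3.10.9.

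The members and lists were chosen with earlier results of these data known. Named were all members, up to 4 genes past the threshold per list (or the 2 with the smallest p), and the 5 named genes with the profile closest to NAC067. The list of other NAC family names had 0 members. Same-numbered samples share only a number in the labels. Alternatives were the replicate block, a crossed block added after seeing the data, quantile normalization, a filter on dim probe sets, other variance priors, other probe set rules and leaving out each sample.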

Additional observations from a re-analysis of the deposited data

How the results depend on the processing

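Under 12 alternatives the log2 fold change of NAC067 stayed between 2.62 and 2.999 and that of NAC068 between 1.79 and 1.89. Over genes each passed in 10, and NAC071 passed in 6. Over probe sets the calls of NAC067 and NAC068 were also lost without CO2 replicate 1. For NAC067 and NAC068, each with a single probe set, only quantile normalization and leaving out a sample could move the fold change. The other settings keep it by construction and bear only on the adjusted p. The replicate block gave 2 NAC genes and 2 NAC probe sets called, and its adjusted p for NAC071 was 0.0698. It gave the dehydrin gene Dhn1 a rise (adjusted p = 0.0342), 1 of 9 in its list. It called 1691 of all probe sets against 6583 without it, and 3666 of all 17905 genes against 5587. The deviations of same-numbered samples correlated at -0.10 over probe sets. A crossed replicate block called 3478 of all probe sets and 4725 of all genes. It called 4 NAC genes (3 higher, and NAC2 lower with limma adjusted p over genes = 0.0476). Leaving out 1 sample in turn, which leaves 1 residual degree of freedom and takes the lone sample of a group to vary like the other group, called 0 to 2477 of all probe sets, 0 to 2 NAC probe sets and 0 to 3 NAC genes. Without control replicate 1 or control replicate 2 limma called 0 NAC genes (3 and 3 with an unadjusted p under 0.05). The median log2 fold change of 0.42 over 8 NAC genes was 0.59 over the 6 at or above the median level, 0.24 as the mean of probe sets, and 0.28 without probe sets that can bind several transcripts. That last setting gave NAC076 a value of -0.063 on its other probe set, and without CO2 replicate 1 NAC45 was at -0.042. Neither passed. NAC076 passed with a mean-variance trend (adjusted p = 0.0338). Apart from the construction of these settings, the cause was not tested. Brightness limits NAC076 and NAC010, which are not shown to be above background, and 2 samples a group limit the rest.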
